A study of Sus scrofa with 95 samples.

Results

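The lining of the gut is renewed from stem cells at the base of the crypts, and some of their daughters become secretory cells. The 10 genes described here mark both ends of that path: LGR5, OLFM4, ASCL2 and SMOC2 are used as markers of crypt stem cells, and ATOH1, SPDEF, AGR2, MUC2, REG4 and CHGA as markers of the secretory lineage. They were taken by symbol from the deposited count table, where 10 of 10 were found among 35670 genes. Their levels are given in the terminal ileum, where the cells lie, and as traces in the liver, with the other organs for reference.

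The RNA came from 5 organs of 19 infant pigs of 5 to 10 kg and both sexes. One group of 4 animals had cardiopulmonary bypass (CPB), in which a machine takes over the work of heart and lungs, with 75 min of deep hypothermic circulatory arrest and 75 mg of linrodostat, an inhibitor of the tryptophan-degrading enzyme IDO1. A second group of 7 animals had CPB and the same arrest without the drug, and 8 control animals had neither the bypass nor the drug. No control animals given the drug alone were analysed here, and each animal gave 1 library per organ. Ileum and kidney were harvested en bloc just before euthanasia, and liver, heart and lung just after it, per the labels' protocols. All ileal and liver libraries carry batch label 1, and heart libraries carry batch label 2.

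LGR5 is a receptor for R-spondins, which strengthen Wnt signalling in the crypt, and ASCL2 is a transcription factor switched on by Wnt that keeps stem cells in their state. OLFM4 is a secreted glycoprotein made by crypt base cells, and SMOC2 is a matrix protein made both by crypt base cells and by mesenchymal cells. Cells in which Notch signalling is low switch on ATOH1, the factor that commits them to the secretory fate, and SPDEF then drives goblet cell maturation. AGR2 is a disulfide isomerase of the endoplasmic reticulum needed to fold mucins, and MUC2 is the gel-forming mucin of intestinal mucus. REG4 is a secreted lectin found in secretory cells of the crypt, and CHGA is the granule protein chromogranin A of enteroendocrine cells.

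In the Sscrofa11.1 assembly, RefSeq places LGR5 at chr5:35463257-35595234, OLFM4 at chr11:26252948-26375531, ASCL2 at chr2:1558459-1560112 and SMOC2 at chr1:1193163-1332739. It places ATOH1 at chr8:125768232-125770619, SPDEF at chr7:30515925-30538095 and AGR2 at chr9:86042070-86053893. MUC2 lies at chr2:689363-719542, REG4 at chr4:101337295-101354550 and CHGA at chr7:114345542-114357799.

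The counts are estimated read counts per gene, and levels are given as counts per 1e6 counts (CPM) after TMM scaling within the organ. They are not corrected for gene length, so levels are compared between libraries and not between genes. In units of 1e6, the total count was 28.5 to 51.4 per ileal library and 27.8 to 49.7 per liver library. Because whole tissue was sequenced, fewer cells of a type and less RNA per cell cannot be told apart.

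The ileal pieces differed widely in their makeup. The summed level of 9 B cell genes split the 19 ileal libraries into 7 with 249.7 to 707 CPM and 12 with 2062 to 4197 CPM. The 7 libraries came from 2 linrodostat, 2 CPB and 3 control animals. MYH11, the myosin of smooth muscle, spanned 57.9 to 14816 CPM over all 19. The summed levels of the 18 lists of other cell types and functions, exact permutation tests of log2 sums with Benjamini-Hochberg adjustment, differed in 0 lists in each of the 3 ileal comparisons. The ileal library of CPB animal 19 stood apart. It had 10.49 CPM of FABP6, the ileal bile acid binding protein, against 1658 to 7191 CPM in the other 18. It also had 3.26 CPM of the brush border enzyme SI. Its epithelial gene EPCAM, at 1208 CPM, was the highest of all. CPB results within ileum are therefore also given without this library, and why it differed was not tested.

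The stem cell genes were detected in every ileal library. LGR5 had 1.69, 2.87, 6.29 and 6.77 CPM in the linrodostat animals, between 0.866 and 4.39 CPM (median 2.62) in the CPB animals and between 0.854 and 2.99 CPM (median 1.52) in controls. The animals with the highest 2 values both had the drug, but the 3 groups overlapped. ASCL2 had 1.95, 2.87, 3.83 and 5.69 CPM in the linrodostat animals, 1.30 to 6.92 CPM (median 1.90) in the CPB animals and 0.640 to 3.37 CPM (median 1.45) in controls. In the CPB group 3 animals exceeded every control and the other 4 lay within the control range. OLFM4 had 747, 785, 1009.6 and 2043 CPM in the linrodostat animals, 222 to 7763 CPM (median 536) in the CPB animals and 176 to 2013 CPM (median 530.4) in controls. Its highest CPB value belongs to animal 19, and the next highest was 1223 CPM. SMOC2 had 17.1, 24.5, 47.7 and 51.2 CPM in the linrodostat animals, 15.0 to 48.6 CPM (median 29.3) in the CPB animals and 9.96 to 44.7 CPM (median 25.0) in controls. The groups overlapped, with 2 linrodostat animals and 1 CPB animal above every control.

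Of the transcription factors of the secretory lineage, ATOH1 had a narrow control range and SPDEF a wide one. ATOH1 had 2.34, 6.24, 13.3 and 28.7 CPM in the linrodostat animals, 3.70 to 27.9 CPM (median 7.81) in the CPB animals and 2.03 to 3.77 CPM (median 3.06) in controls. All but 1 of the 4 linrodostat animals and 6 of the 7 CPB animals lay above every control. SPDEF had 6.52, 25.0, 27.8 and 68.1 CPM in the linrodostat animals, 11.4 to 29.3 CPM (median 19.6) in the CPB animals and 6.71 to 42.3 CPM (median 15.3) in controls, and the groups overlapped.

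Among the secretory products, AGR2 had 40.6, 138, 156 and 210.2 CPM in the linrodostat animals, 32.8 to 224 CPM (median 58.5) in the CPB animals and 16.4 to 48.9 CPM (median 26.5) in controls. In all, 3 of 4 linrodostat and 5 of 7 CPB animals exceeded every control. REG4 had 30.1, 45.9, 105 and 184 CPM in the linrodostat animals, 21.7 to 128 CPM (median 33.5) in the CPB animals and 8.31 to 36.1 CPM (median 18.4) in controls, with 3 animals of each CPB group above every control. MUC2 and CHGA did not follow this order. MUC2 had 0.967, 33.2, 36.3 and 129 CPM in the linrodostat animals, 10.2 to 38.7 CPM (median 18.9) in the CPB animals and 8.78 to 49.4 CPM (median 19.5) in controls. CHGA had 14.9, 64.2, 94.4 and 175 CPM in the linrodostat animals, 46.5 to 114 CPM (median 69.6) in the CPB animals and 37.1 to 229 CPM (median 98.4) in controls. For both genes the linrodostat animals held values above and below those of all CPB animals.

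**Figure D1:**
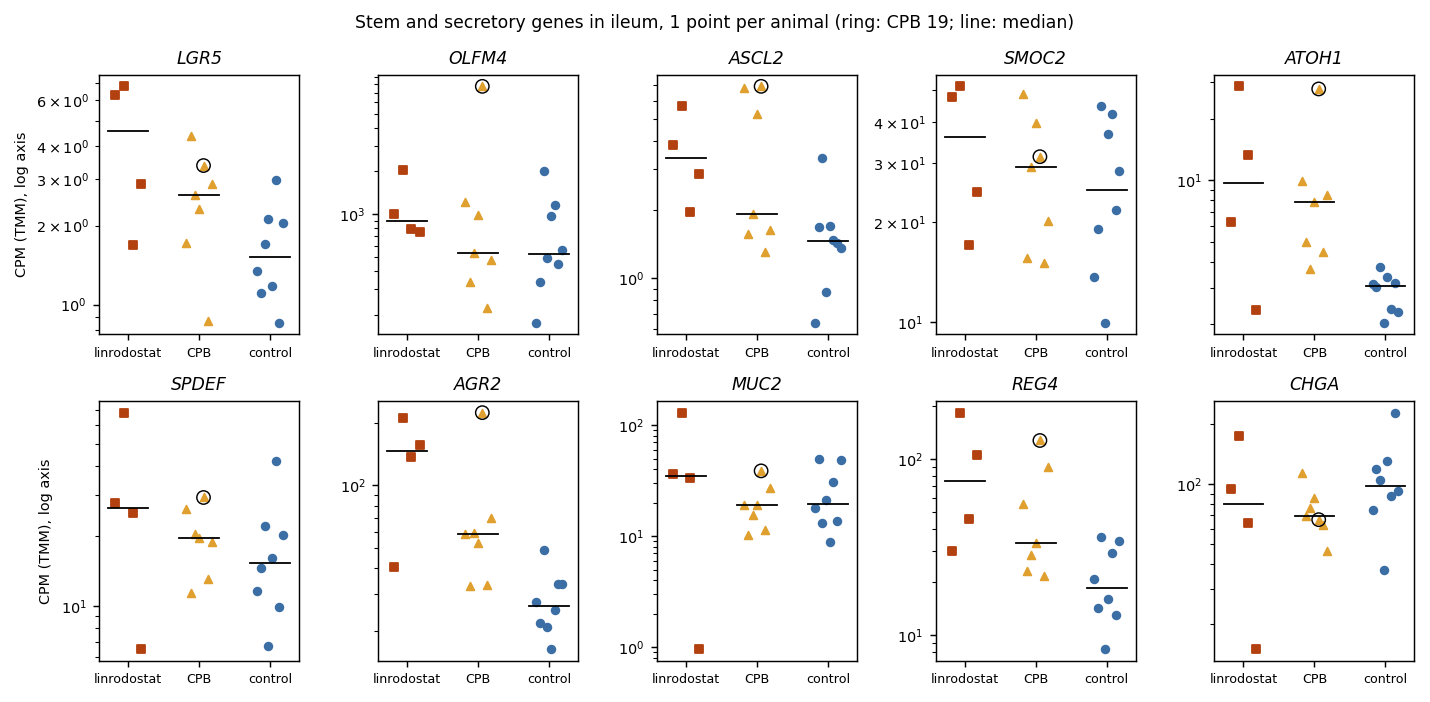
Level of each gene in ileum in CPM on a log axis, 1 point per animal, for linrodostat (4), CPB (7) and control (8) animals, with the group median as a line and a ring around CPB animal 19. ATOH1 and AGR2 lie above every control in 6 and 5 of the 7 CPB animals, while no CPB animal lies outside the control range for MUC2 or CHGA, and in OLFM4 the ringed CPB value of 7763 CPM stands far above the rest.

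The first question was whether bypass and arrest alone changed these genes in the ileum. In edgeR's quasi-likelihood test with Benjamini-Hochberg adjustment, 0 of 10 passed an adjusted p of 0.05, where 0% of the 17869 genes tested did. At an unadjusted p under 0.05, 4 of the 10 were higher, against 5.22% of all genes in either direction, and DESeq2 and limma-voom also called 0 of the 10. ATOH1 averaged 9.62 ± 8.37 CPM in CPB ilea and 2.89 ± 0.604 CPM in control ilea (SD, n = 7 and 8), a log2 fold change of 1.74 ± 0.46 (SE) with an edgeR adjusted p of 0.575. It had the 38th smallest p of all genes. AGR2 (log2 fold change 1.41 ± 0.40, edgeR adjusted p = 0.659), REG4 (1.34 ± 0.46, 0.791) and ASCL2 (1.21 ± 0.43, 0.831) were the other 3. Without animal 19, the log2 fold changes were 1.19 for ATOH1, 0.84 for AGR2, 0.97 for REG4 and 0.97 for ASCL2, each with an edgeR adjusted p of 1.00, and that of OLFM4 was -0.29 in place of 1.10. The median log2 fold change of the 10 genes was 0.87, and that of all genes was -0.02.

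The second question was whether the drug changed them within the bypass animals. Again edgeR called 0 of the 10, where 0% of all genes passed, 0 of the 10 had an unadjusted p under 0.05 (9.18% of all genes did), and DESeq2 and limma-voom called 0. The largest difference was in MUC2, with 49.97 ± 55.3 CPM in linrodostat ilea and 20.2 ± 9.93 CPM in CPB ilea (SD, n = 4 and 7), a log2 fold change of 1.31 with an interval of -0.05 to 2.67. For AGR2 the log2 fold change was 0.85 (interval -0.08 to 1.77), and for ATOH1 0.39 (-0.67 to 1.46). These 95% intervals each include no change. Without CPB animal 19 the log2 fold changes were 1.55 for MUC2, 1.42 for AGR2 and 0.94 for ATOH1, and that of OLFM4 was 0.86 in place of -0.53, with 0 calls.

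Set against controls, the linrodostat ilea had 1 called gene of the 10. AGR2 averaged 136 ± 70.8 CPM in linrodostat ilea and 28.5 ± 10.2 CPM in control ilea (SD, n = 4 and 8), a log2 fold change of 2.26 ± 0.45 with an edgeR adjusted p of 0.0480. Of all genes tested, 38 or 0.213% passed in this comparison, and 4 of the 10 (AGR2, ATOH1, REG4 and LGR5) passed in DESeq2, where 4.66% of all genes did. ATOH1 (2.13 ± 0.52, edgeR adjusted p = 0.0685), REG4 (2.09 ± 0.52, 0.0694) and LGR5 (1.40 ± 0.41, 0.111) lay just outside the threshold in edgeR, and the other 6 had adjusted p-values of 0.270 to 0.860. The AGR2 call is at the edge: its adjusted p was 0.0607 in limma-voom, 0.148 when only these groups were fitted and 0.0146 to 0.118 when 1 animal was left out. The call was lost without 16 of the 19 animals and kept without linrodostat animal 12, CPB animal 9 or CPB animal 19, with log2 fold changes of 1.97 to 2.56 throughout. All called genes in these fits numbered between 0 and 278. TFF3, a goblet cell peptide co-packed with mucin, was the other called gene among the lists, at 273 ± 168 CPM in linrodostat ilea and 78.0 ± 38.8 CPM in control ilea (1.81 ± 0.36, edgeR adjusted p = 0.0480), with overlap of the groups.

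The summed level of 16 general epithelial genes did not pass between the groups (linrodostat against control, exact permutation adjusted p = 0.941). When its log2 was added to the model, calls over all genes numbered 1587 in place of 38, and 7 of the 10 genes were higher in linrodostat than in control ilea, where 8.88% of all genes passed. They were AGR2 (2.50, edgeR adjusted p = 0.00657), REG4 (2.33, 0.0134), ATOH1 (2.13, 0.00784), OLFM4 (1.66, 0.0387), ASCL2 (1.65, 0.0137), LGR5 (1.48, 0.0296) and SPDEF (1.04, 0.0297). SMOC2 (0.77, adjusted p = 0.0880), MUC2 (0.79, 0.430) and CHGA (-0.36, 0.608) were not. With the smooth muscle list in its place, a choice made after seeing the data, 5 of the 10 passed, where 5.78% of all genes did. In the same model with the epithelial list, 0 of the 10 passed in CPB against control and 0 in linrodostat against CPB, with ATOH1 at 1.65 (adjusted p = 0.148) and AGR2 at 1.36 (0.198) in CPB against control.

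**Figure D2:**
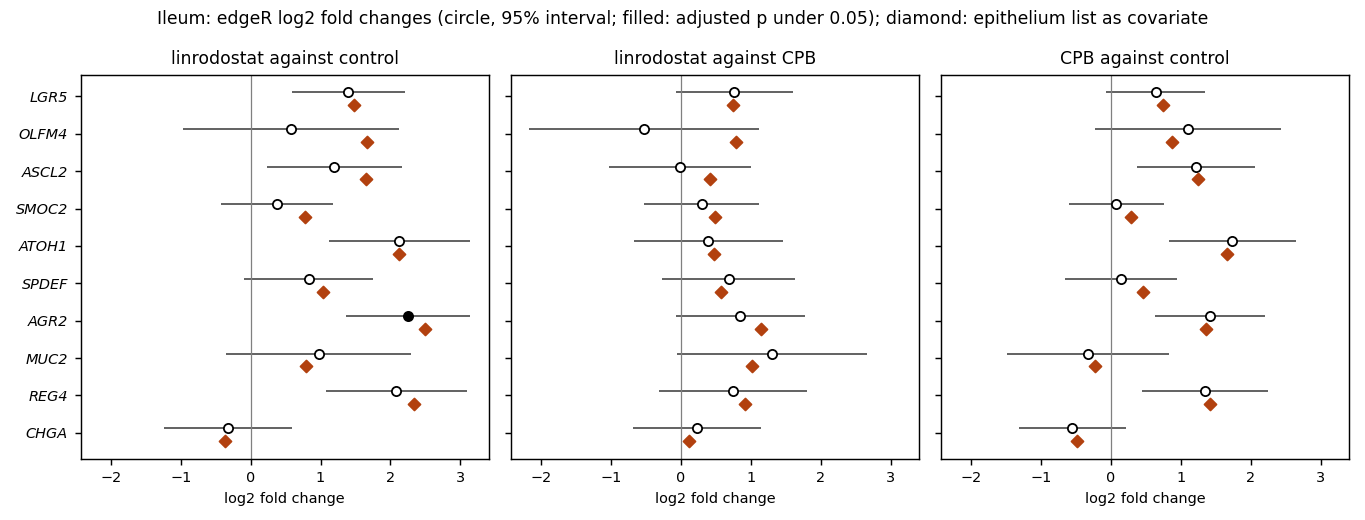
Log2 fold change of each gene in ileum from edgeR in 3 comparisons, as circles with 95% intervals (filled where the adjusted p is under 0.05), and as diamonds with the summed epithelial list as a covariate. AGR2 in linrodostat against control, at 2.26, is the one filled circle, and ATOH1 and REG4 lie beside it at 2.13 and 2.09, while the linrodostat against CPB intervals all include 0.

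Genes of the same pathways were counted beside them, as log2 fold changes in CPB against control and then linrodostat against control. None of the 18 lists had a gene called by edgeR in CPB against control or in linrodostat against CPB in ileum. Of 16 other goblet cell genes tested, 15 lay above 0 in CPB against control (median 0.65), and 12 in linrodostat against control (median 0.95, TFF3 called). Of 18 other stem cell and Wnt genes, 15 lay above 0 in the first (median 0.23) and 14 in the second (median 0.28), with 0 called. Among 24 other enteroendocrine genes, 8 lay above 0 in CPB against control (median -0.21), 21 in linrodostat against control (median 0.55), and 0 were called. Of 12 Notch genes 0 were called, with medians of 0.05 and -0.03. Of 11 cell division genes 0 were called, with medians of -0.11 and 0.18. TOP2A, the leading gene of the cell division list, differed with the makeup of the piece. It had 70.0 to 233 CPM in the 7 ilea with the lower B cell sum and 337 to 892 CPM in the other 12. The median over all genes tested was -0.02 in CPB against control and 0.02 in linrodostat against control. These comparisons share their control animals.

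The secretory genes did not share one order over the libraries. Linrodostat animal 24 had the lowest MUC2 (0.967 CPM, 31 reads), SPDEF (6.52 CPM) and CHGA (14.9 CPM) of all 19 ilea, and an ATOH1 level within the control range at 2.34 CPM. The same library had 156 CPM of AGR2 and 105 CPM of REG4, both above every control. It also had the lowest VIL1, a brush border protein, at 60.05 CPM and the lowest MYH11. Linrodostat animal 18 was the opposite, with the highest LGR5, SMOC2, ATOH1, SPDEF, MUC2 and REG4 of all 19 ilea.

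The genes were then set against each other across animals, with the group means removed. Over all 19 ilea, 12 of 45 gene pairs had a correlation of log2 CPM past an adjusted p of 0.05 (permutation of animals within groups, Benjamini-Hochberg over the 45 pairs), and all 12 were positive. Without CPB animal 19 it was 6 pairs, and with the summed epithelial list also removed from all 19 ilea it was 1. Since the ilea fall into 2 clusters by B cell genes, the same was computed within the 12 libraries with the higher B cell sum, where 0 of 45 pairs passed. The largest values there were between SPDEF and MUC2 (r = 0.87, rho = 0.83), between ASCL2 and SMOC2 (0.81, 0.80), between ATOH1 and MUC2 (0.78, 0.45), between OLFM4 and ASCL2 (0.76, 0.59) and between AGR2 and REG4 (0.73, 0.70). Their permutation p-values were 0.0165, 0.00398, 0.241, 0.0166 and 0.00734 before adjustment, and 0.187, 0.165, 0.705, 0.187 and 0.165 after it. Without the 2 libraries farthest from the median, r was 0.88 for SPDEF with MUC2, 0.80 for ASCL2 with SMOC2, 0.24 for ATOH1 with MUC2, 0.64 for OLFM4 with ASCL2 and 0.69 for AGR2 with REG4. The ATOH1 relation therefore rests on linrodostat animals 20 and 24.

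**Figure D3:**
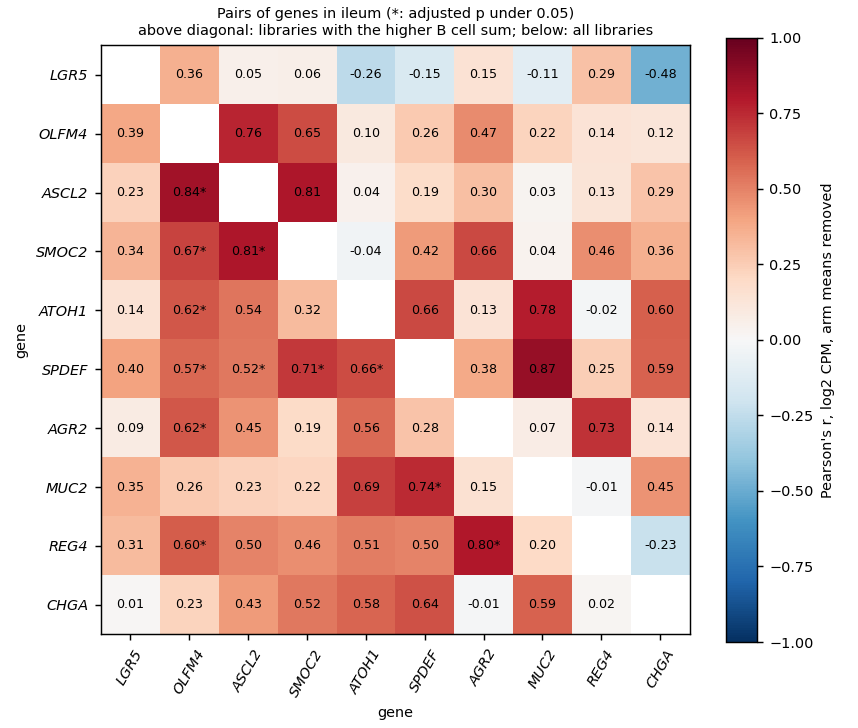
Pearson correlation of log2 CPM between pairs of the 10 genes after removing group means, below the diagonal over all 19 ilea and above it over the 12 ilea with the higher B cell sum (stars mark adjusted p under 0.05). Above the diagonal, OLFM4, ASCL2 and SMOC2 have values of 0.65 to 0.81 with each other, SPDEF with MUC2 0.87 and AGR2 with REG4 0.73. Other pairs reach a like size (ATOH1 with MUC2 0.78, ATOH1 with SPDEF 0.66, SMOC2 with AGR2 0.66). The stem cell gene LGR5 is at 0.05 with ASCL2 and 0.06 with SMOC2. No pair above the diagonal carries a star.

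The levels also differed with the makeup of the piece. SPDEF spanned 16.02 to 68.1 CPM (median 27.8) in the 7 libraries with few B cell transcripts and 6.52 to 25.0 CPM (median 13.8) in the other 12. SMOC2 spanned 31.4 to 51.2 CPM (median 44.7) in the 7 and 9.96 to 39.6 CPM (median 19.6) in the 12. Each of the 7 had at least 976 CPM of OLFM4, and 1 of the 12 exceeded that, at 987 CPM. AGR2 overlapped throughout, with medians of 48.9 and 33.5 CPM. This split was made from the data and no test was applied to it. As a description over the 19 ilea, which share the same pieces and RNA, log2 SMOC2 correlated with the smooth muscle list at r = 0.81 and with the cell division list at -0.79, and SPDEF with the epithelial list at 0.83.

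For each gene, the most similar genes in log2 level over the 19 ilea were found among 11956 named genes averaging 2 CPM or more, by Pearson r after removing group means and with no test. ATOH1 was closest to CLCA1, a goblet cell secreted protein (r = 0.94 over 19 ilea, 0.91 in the 12), TTC39A (0.93, 0.91) and SLC45A4 (0.90, 0.74). REG4 was closest to SPINK4, a peptide of goblet cells (0.93, 0.90), and then to APOBEC1 (0.82, 0.83) and AGR2 itself (0.80, 0.73). AGR2 was closest to SLC35E3 (0.92, 0.86) and then SPINK4 (0.85, 0.78). SPDEF was closest to TRPM5, a cation channel of tuft cells (0.95, 0.88), and OLFM4 to GALNT12, a glycosyltransferase that starts mucin-type chains (0.96, 0.76), with GPX2, an epithelial glutathione peroxidase, also near (0.94, 0.91). LGR5 had no neighbour above TMEM87A at 0.73 (0.68 in the 12).

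Across organs, the genes had been picked as intestinal genes, so their excess in ileum over liver is a description of their levels. ASCL2, ATOH1 and MUC2 had too few liver reads to pass the filter in liver alone and entered the joint fit of control animals through ileum. Of the other 7, edgeR called OLFM4, SPDEF, AGR2, REG4 and CHGA higher and LGR5 lower in ileum than in liver of the same control animals, and SMOC2 did not pass. Of all 18411 genes tested, 65.7% passed in either direction. On a common TMM scale CHGA averaged 80.4 ± 41.1 CPM in control ilea and 0.548 ± 0.348 CPM in control livers (SD, n = 8 each), a 143-fold difference, and AGR2 differed by 12.6-fold. LGR5 averaged 1.23 ± 0.516 CPM in control ilea and 2.50 ± 1.01 CPM in control livers, a log2 difference of -1.05 ± 0.41 (edgeR adjusted p = 0.0236). The order of LGR5 depended on the scaling. With TMM scaling within each organ it averaged 1.67 CPM in control ilea and 1.42 CPM in control livers. SMOC2 averaged 20.0 ± 9.84 and 13.2 ± 2.88 CPM in control ilea and control livers (0.57 ± 0.27, adjusted p = 0.0625), and passed with relative log expression scaling (0.66, 0.0320). With the animal as a replicate block, the differences were -1.04 for LGR5 and 0.42 for SMOC2, and LGR5 still passed (adjusted p = 0.0273) while SMOC2 did not (0.207).

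In the livers, 7 of the 10 genes had enough reads to be tested, and ASCL2, ATOH1 and MUC2 did not pass the filter on low counts. All 3 were near 0: ASCL2 had 30 reads over all 19 livers, ATOH1 41 and MUC2 114. The bypass alone gave no call among the 7, where 26.9% of genes passed in CPB against control livers. OLFM4 averaged 1.14 ± 0.713 CPM in CPB livers and 4.04 ± 4.00 CPM in control livers (SD, n = 7 and 8; log2 fold change -1.81 ± 0.72, edgeR adjusted p = 0.0675), and CHGA averaged 0.0870 ± 0.0899 CPM in CPB livers and 0.311 ± 0.198 CPM in control livers (-1.71 ± 0.71, 0.0766). These were the 2 of 7 with an unadjusted p under 0.05, DESeq2 called 2 and limma-voom 0.

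OLFM4, REG4 and CHGA stood highest in the linrodostat livers. OLFM4 had 10.7, 13.3, 19.7 and 33.2 CPM in the linrodostat livers, 0.203 to 2.11 CPM (median 1.27) in the CPB livers and 0.283 to 10.4 CPM (median 2.79) in control livers. REG4 had 1.97, 2.52, 3.99 and 7.64 CPM in the linrodostat livers, 0.108 to 0.572 CPM (median 0.236) in the CPB livers and 0 to 1.89 CPM (median 0.334) in control livers. CHGA had 0.712, 0.896, 1.17 and 2.78 CPM in the linrodostat livers, 0 to 0.198 CPM (median 0.0872) in the CPB livers and 0 to 0.555 CPM (median 0.309) in control livers. For these 3 genes every linrodostat liver was above every liver of both other groups, with linrodostat animal 18 the highest each time, as it was for AGR2 and SPDEF.

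Against CPB livers, 3 of the 7 tested genes were higher in linrodostat livers, where 0.772% of the 15406 genes tested passed. OLFM4 had a log2 fold change of 4.06 ± 0.83 (edgeR adjusted p = 0.0235), REG4 3.95 ± 0.85 (0.0302) and CHGA 3.86 ± 0.78 (0.0189). SPDEF (2.15 ± 0.69, 0.279), AGR2 (1.85 ± 0.70, 0.406), LGR5 (1.00 ± 0.52, 0.638) and SMOC2 (0.33 ± 0.18, 0.677) were not called. Against control livers, 4 of the 7 were higher, where 21.8% of genes passed in either direction: REG4 (2.76 ± 0.77, edgeR adjusted p = 0.0163), SPDEF (2.40 ± 0.67, 0.0153), OLFM4 (2.25 ± 0.75, 0.0401) and CHGA (2.15 ± 0.69, 0.0311). In these calls every linrodostat liver lay above every liver of the group it was set against, where 1.51% of genes tested did so against CPB and 7.86% against control. Without linrodostat animal 18, 0 of the 7 were called in either comparison and the count of all genes called against CPB was 1 in place of 119. Without linrodostat animal 24 it was 74, with 1 of the 7 called (CHGA), and the count against control was 1857 in place of 3358. Leaving out each of the 19 animals in turn, the call against CPB was kept 18 times for CHGA, 13 times for OLFM4 and 11 times for REG4, and that against control 18 times for REG4, 17 times for CHGA, 17 times for SPDEF and 11 times for OLFM4. These counts include removals of animals outside the groups compared. Within those groups, the OLFM4 call against CPB survived only the removal of linrodostat animal 12 or 20 or CPB animal 9, 19 or 25. The REG4 call against CPB survived only that of linrodostat animal 12 or 20 or CPB animal 19. Against control, the OLFM4 call survived only that of control animal 4, 13, 14 or 15.

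**Figure D4:**
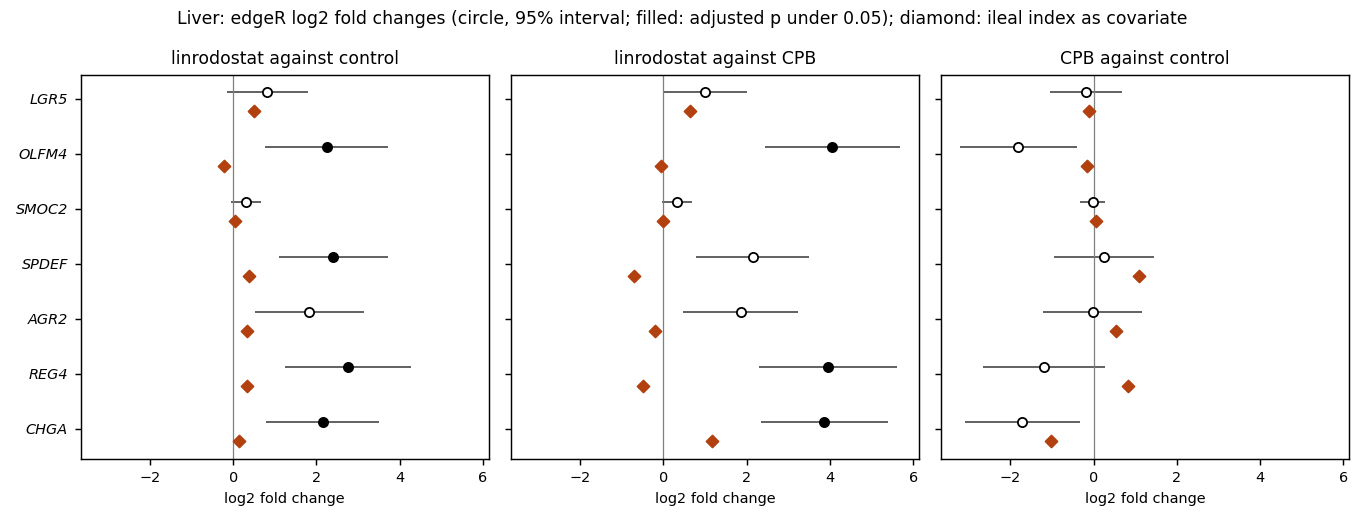
Log2 fold change of the 7 genes tested in liver from edgeR in 3 comparisons, as circles with 95% intervals (filled where the adjusted p is under 0.05), and as diamonds with the ileal index as a covariate. OLFM4, REG4 and CHGA are filled in both linrodostat comparisons and SPDEF in the one against control, and the diamonds of OLFM4 lie at -0.07 and -0.22, near 0. The diamond of CHGA against CPB lies at 1.16 or above. The index did not overlap between linrodostat and CPB livers, so the diamonds hardly separate it from the group.

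Genes that the ileum expresses and the liver hardly does moved with these values. An ileal index was formed, after seeing the data, from 13 absorptive and epithelial genes with at least 50 times their control liver level in control ileum, none of them among the 10. Its median was 1.57 to 6.24% of the control ileum level in linrodostat livers, 0.101 to 0.515% in CPB livers and 0.0798 to 1.57% in control livers. Of the 117 genes higher in linrodostat than in CPB livers, 112 (95.7%) had at least 10 times their control liver level in control ileum, as did 4.02% of all genes tested. FABP6, for example, averaged 58.7 ± 37.1 CPM in linrodostat livers and 3.59 ± 1.99 CPM in CPB livers (log2 fold change 4.03 ± 0.76, edgeR adjusted p = 0.0147). With the index as a covariate, 0 of the 7 genes were called in linrodostat against CPB, where 0% of genes were, and 0 in linrodostat against control, where 6% were. The index of every linrodostat liver lay above that of every CPB liver, and no control liver exceeded the lowest linrodostat liver. This fit can therefore hardly separate the index from the group, and the loss of calls decides nothing about the source of the transcripts. With the index, the OLFM4 log2 fold change was -0.07 against CPB livers and -0.22 against control livers, and that of REG4 was -0.48 and 0.34. SPDEF (-0.70), AGR2 (-0.21) and SMOC2 (-0.0019) also fell below 0 against CPB livers. CHGA and LGR5 did not: over the 26 alternative fits, the index among them, CHGA was at least 1.16 against CPB livers. Against control livers it was at least 0.13, and LGR5 was at least 0.63 against CPB and 0.51 against control livers.

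The genes did not all stand at the same fraction of their ileal level. In linrodostat livers the index was 2.46% of control ileum at the median, OLFM4 was 4.79% (3.14 to 9.65%), CHGA 2.13% (1.49 to 5.74%) and MUC2 1.62% (1.37 to 4.60%). SPDEF stood at 16.6% (8.71 to 35.5%), AGR2 at 23.1% (12.3 to 45.9%) and REG4 at 33.8% (20.7 to 79.2%). LGR5 and SMOC2 stood far above the index in every group: LGR5 was 192 to 449% of control ileum in linrodostat livers, 28.7 to 445% in CPB livers and 62.2 to 309% in control livers. SMOC2 was 65.5 to 97.8%, 44.3 to 77.4% and 49.5 to 94.8% in linrodostat, CPB and control livers. These percents are on the common TMM scale. With scaling within each organ, the median over all livers was 65.7% of the median over all ilea for LGR5 and 26.1% for SMOC2.

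**Figure D5:**
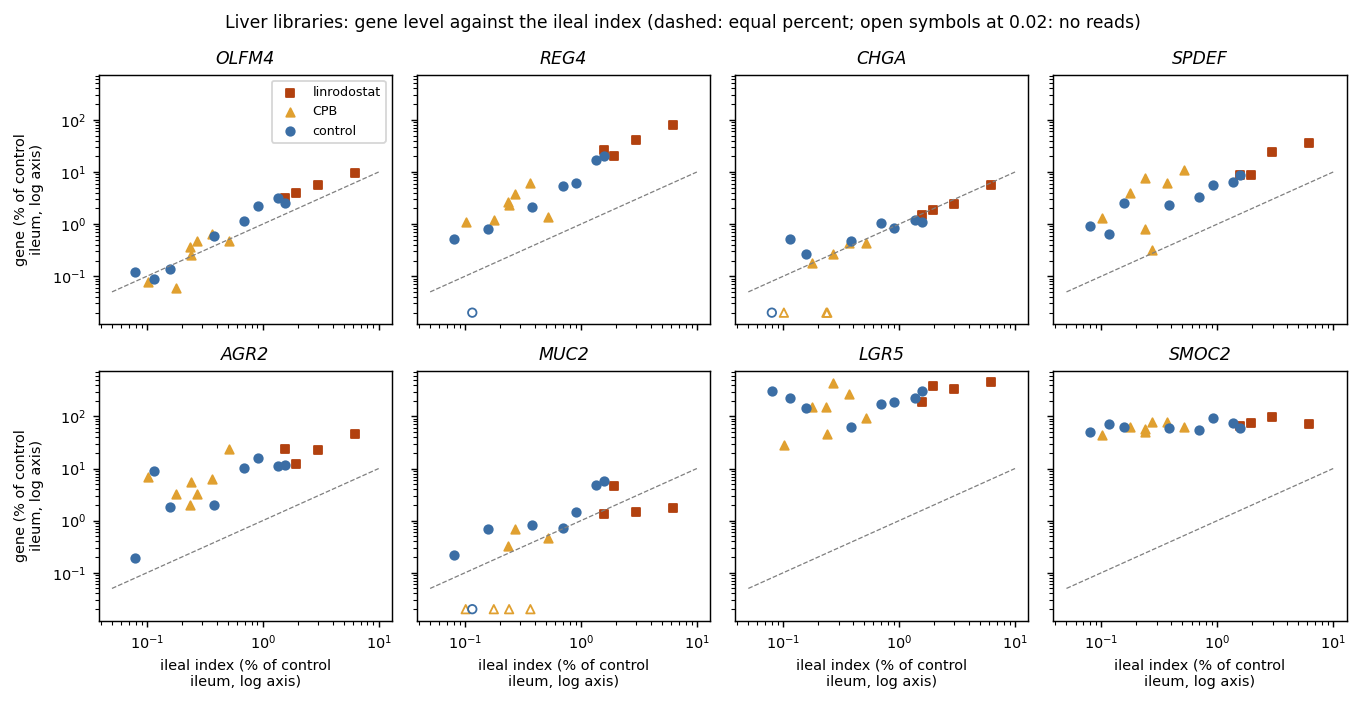
Level of 8 genes in each of the 19 livers, as percent of the control ileum mean on the common TMM scale. It is plotted against the ileal index of the same library on log axes, for linrodostat, CPB and control animals. The dashed line marks equal percent, and open symbols mark no reads. OLFM4 and CHGA lie along the dashed line and REG4, SPDEF and AGR2 above it, while LGR5 and SMOC2 lie far above it across the index range of 0.0798 to 6.24%.

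Bile duct cells are the liver's own epithelium that could hold some of these genes. Of 9 bile duct genes, 1 was called in linrodostat against CPB livers, where 0.772% of all genes were (EPCAM, 15.9 ± 4.71 CPM in linrodostat livers and 7.62 ± 1.98 CPM in CPB livers) and 3 against control livers, where 21.8% of all genes were. EPCAM was 32.8 times and KRT19, also on this list, 38.2 times higher in control ileum than in control liver. These genes therefore cannot tell bile duct and ileal transcripts apart. Their summed level was 123 to 153 CPM in linrodostat livers, 61.3 to 186 CPM in CPB livers and 53.7 to 119 CPM in control livers. The bile duct sum was higher in linrodostat than in control livers (log2 difference 0.91, exact permutation adjusted p = 0.0242). Against CPB livers it did not pass (adjusted p = 0.518). In linrodostat against control livers, the stem and Wnt (0.84) and epithelial (0.90) sums were also higher at the same adjusted p. The enteroendocrine (-1.27), Paneth-like (-0.73) and macrophage (-0.74) sums were lower, again at 0.0242. Most of these differences were also present without the drug. In CPB against control livers, the stem and Wnt (0.56, exact permutation adjusted p = 0.0133) and epithelial (0.91, 0.0133) sums were higher. The enteroendocrine (-1.15, 0.00979) and macrophage (-0.58, 0.0452) sums were lower there, and the Paneth-like sum did not pass (-0.47, 0.0511). In linrodostat against CPB livers none of these sums passed, with the epithelial difference at -0.0029. TPH1 made up 85.0% of the enteroendocrine sum in liver. The part of bile duct cells in the result was not tested. Among 9 B cell genes, 3 were called higher in linrodostat against CPB livers and 0 in linrodostat against control livers, while 7 were called lower in CPB against control livers, where 26.9% of all genes were called. Among 14 goblet cell genes, 2 were called higher in linrodostat against CPB livers (CLCA1 and SPINK4), 3 higher and 2 lower in linrodostat against control livers, and 1 lower in CPB against control livers.

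Elsewhere the genes were low or had other patterns, and LGR5 and SMOC2 had higher medians in kidney than in ileum. On the common TMM scale, the LGR5 median over 19 libraries was 13.9 CPM in kidney, 2.125 CPM in lung and 1.54 CPM in ileum. That of SMOC2 was 33.6 CPM in kidney and 21.4 CPM in ileum. In kidney, AGR2 was the 1 called gene of 4 tested, where 21.1% of genes passed in CPB against control: it averaged 6.34 ± 3.14 CPM in CPB kidneys and 1.40 ± 0.989 CPM in control kidneys (SD, n = 7 and 8; log2 fold change 2.18 ± 0.41, edgeR adjusted p = 0.00145), and was called under every alternative run. SMOC2 averaged 39.8 ± 16.6 CPM in CPB kidneys and 97.1 ± 78.5 CPM in control kidneys (-1.29 ± 0.45, adjusted p = 0.0503). OLFM4 averaged 2.14 ± 1.62 CPM in CPB kidneys and 0.725 ± 0.571 CPM in control kidneys (1.56 ± 0.61, edgeR adjusted p = 0.0770). It passed in 2 of 6 alternative fits. With AGR2, these made 3 of the 4 with an unadjusted p under 0.05, where 35.4% of all genes had one. LGR5 was 10.9 to 30.6 CPM in every kidney, with no call. In lung, 0 of 7 tested genes were called, where 4.71% of genes passed, and 2 (OLFM4 and AGR2) had an unadjusted p under 0.05. In heart, 0 of 3 were called, where 11.9% passed, and 0 had an unadjusted p under 0.05; DESeq2 and limma-voom called 0 in lung and in heart. REG4 had no reads in any heart, and ATOH1 reached at most 0.107 CPM outside ileum and liver.

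Whether the bypass effect differed between ileum and liver was tested as an interaction. With edgeR 0 of the 10 passed, where 2.07% of genes did. An unadjusted p under 0.05 was reached by OLFM4 (difference of log2 fold changes 3.04 ± 1.02, edgeR adjusted p = 0.0951), REG4 (2.63 ± 0.88, 0.0933) and AGR2 (1.52 ± 0.74, 0.257). ATOH1, ASCL2 and MUC2 also reached it, but their liver counts were too close to 0 for a difference between the organs to be read. With the animal as a replicate block, 245 genes passed in place of 382, and 0 of the 10. Over the 3 alternative fits, OLFM4 was 1.62 to 3.03 (edgeR adjusted p = 0.0965 to 0.390) and REG4 2.00 to 2.62 (0.0941 to 0.184). The interaction was not run without CPB animal 19, whose ileal library had the highest OLFM4.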

How the data were processed

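The values are expected counts (estimated reads per gene) in a single table deposited by the authors, made with STAR, Salmon and related tools on Sscrofa11.1 per the submitters' processing notes. Versions and the step that made the counts are not given in the sources used here. Counts were rounded. The genes and lists were chosen with earlier results of these data known. In R 4.3.3, edgeR 4.0.16 was run per organ on all 19 libraries: low-count filter by group, TMM, robust quasi-likelihood fit, 2-sided tests of 3 comparisons, Benjamini-Hochberg adjustment over the genes tested in the organ. Ileum and liver were fitted together for the organ comparison and the interaction. A prior count of 2 entered log2 CPM. The epithelial and other list covariates are log2 summed CPM. Alternatives were relative log expression scaling, no filter, a sex term, fits of a single pair of groups, limma-voom (limma 3.58.1), DESeq2 1.42.0, list covariates and leaving out each animal. The fits were tested on simulated counts.

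All members are printed, and of the other genes up to 3 called genes per list with a mean of at least 2 CPM, 3 nearest neighbours per gene and the leading gene of a list, not all of them shown. VIL1 was named after its values were seen. Biological coefficients of variation were 0.526 in ileum and 0.356 in liver, and no column repeated another. Libraries of ileum and liver are paired by animal: after removing organ and arm means, their correlations were -0.01 to 0.26. Symbols matched RefSeq for 10 of 10 genes.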

Additional observations from a re-analysis of the deposited data

Results flagged for a closer look

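Among the 60 sets of libraries (10 genes, ileum and liver, 3 groups), the highest or lowest library stood far from the rest of its group in 9. The rule flags about 1 in 20 sets of normally distributed values. CPM are skewed and the sets share animals, so the 9 cannot be set against that rate. In ileum, CPB animal 19 was far above the other 6 CPB animals for OLFM4 (7763 CPM, next 1223), AGR2 (224 CPM, next 69.7) and ATOH1 (27.9 CPM, next 9.92). Among control ilea, animal 7 stood out for ASCL2 (3.37 CPM, next 1.69) and animal 14 for SPDEF (42.3 CPM, next 22.2). In liver, CPB animal 9 stood out for AGR2 (2.86 CPM, next 0.895), CPB animal 21 for ATOH1 (0.0581 CPM, which is 2 reads, with none in the other 6 so that any read stands apart), control animal 4 for ATOH1 (0.178 CPM, next 0.0707) and linrodostat animal 20 for MUC2 (0.515 CPM, next 0.201).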

How the results depend on the processing

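The smooth muscle and ileal index covariates and the sets without CPB animal 19 or with the higher B cell sum were chosen after seeing the data; the cause of each change below was not tested. Over the named genes' fold changes, leaving out 1 animal kept direction and call in 884 cases, reversed 32, lost 44 calls and gained 9, and the other settings kept 473, reversed 21, lost 13 and gained 23. In linrodostat against control in ileum, the called genes (38) and called members (1) were 72 genes with relative log expression scaling, 0 and 0 with no filter, with sex and with only these groups fitted, 833 and 4 with DESeq2, 0 members with limma-voom, 1587 and 7 with the epithelial covariate and 1032 and 5 with the smooth muscle covariate. DESeq2 called 16 genes in CPB against control and 97 in linrodostat against CPB in ileum, and the epithelial covariate 1 in each.

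Signs turned in linrodostat against CPB in ileum for OLFM4 (0.41 limma-voom, 0.80 epithelial, 0.38 smooth muscle), ASCL2 (0.22, 0.41, 0.38) and CHGA (-0.18 limma-voom), and for MUC2 in linrodostat against control (-0.067 limma-voom). In liver, no filter gave 2 members in linrodostat against control, 1 in linrodostat against CPB and 1 in CPB against control. There DESeq2 gave 208 genes in linrodostat against CPB and 2 members in CPB against control. In CPB against control livers, SMOC2 was 0.0066 with sex and 0.052 with the index, AGR2 was 0.17 with sex, 0.36 with limma-voom and 0.54 with the index, and REG4 was 0.82 with the index. With the index, linrodostat against CPB livers had 0 genes and 0 members, with OLFM4 -0.065, SMOC2 -0.0019, SPDEF -0.70, AGR2 -0.21 and REG4 -0.48, and linrodostat against control livers had 924 genes and 0 members, with OLFM4 -0.22. Kidney members called were 2 with relative log expression scaling, 3 with DESeq2 and 3 with only these groups, and DESeq2 called 1731 lung genes. The interaction had 245 genes with the animal as a replicate block and 209 with no filter, and SPDEF was 0.19 with the replicate block. Gene pairs past the threshold were 0 in controls, 1 with the epithelium removed, 0 in the higher B cell set and 6 without CPB 19. In livers, mean log2 CPM called 7 lists in linrodostat against CPB, where summed CPM called 0, and 2 in CPB against control, where summed CPM called 6.

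Leaving out 1 animal gave these ranges. In ileum, linrodostat against control had 0 to 278 genes and 0 to 3 members, MUC2 -0.083 to 1.40 and CHGA -0.90 to 0.035. Linrodostat against CPB had ATOH1 -0.40 to 0.94, CHGA -0.34 to 0.59, ASCL2 -0.32 to 0.22 and OLFM4 -0.96 to 0.86. CPB against control had SMOC2 -0.11 to 0.23 and OLFM4 -0.29 to 1.51. In liver, CPB against control had 0 to 2 members, LGR5 -0.65 to 0.0092, SMOC2 -0.083 to 0.073, AGR2 -0.67 to 0.22 and SPDEF -0.12 to 0.54. Linrodostat against CPB had 1 to 137 genes and 0 to 3 members, and linrodostat against control 1857 to 3514 genes and 0 to 5 members. Depth limits the liver values of ASCL2, ATOH1 and MUC2, and 4 linrodostat animals limit both drug comparisons.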
